A study of Mus musculus with 11 samples.

Results

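The genes described here are 10 members of the mouse major histocompatibility complex (MHC) class I system: the heavy chain genes H2-K1, H2-D1, H2-Q1, H2-Q4, H2-Q6, H2-Q7, H2-T22, H2-T23 and H2-M3, and B2m, which encodes the light chain. They were taken by symbol from the gene count table, and all 10 were among its 25677 genes. RNA was sequenced from kidneys of female mice aged 21 weeks, each mouse giving 1 library. The 3 control mice (Ctr) were C57BL/6J animals, labelled C57B6, the 4 Lpr mice were MRL/lpr animals, which are homozygous for the lpr mutation of Fas and acquire nephritis like that of lupus, and the 4 DNase mice were MRL/lpr animals injected intraperitoneally each day with DNase I, an enzyme that degrades DNA outside cells. Lpr and DNase thus shared strain and mutation and differed in treatment. Either group differed from Ctr in strain, lpr mutation, H2 haplotype and disease at the same time, and DNase differed from Ctr in treatment as well. These differences from Ctr cannot be told apart here.

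MHC class I molecules show peptides from inside the cell to CD8 T cells and are recognised by receptors of natural killer cells. Each consists of a heavy chain, encoded in the H2 complex, and beta-2 microglobulin, the invariant light chain from another chromosome, without which most heavy chains do not reach the cell surface. H2-K1 and H2-D1 are classical genes, highly polymorphic and active in nearly all nucleated cells, while the Q, T and M genes are non-classical. Interferons raise class I transcription through the interferon response element, the kappaB site of enhancer A and the SXY module, to which the transactivator NLRC5 is recruited. C57BL/6 mice carry the b haplotype of H2 and MRL mice the k haplotype, which differ in sequence and in the number of Q and T genes.

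The 9 heavy chain genes lie on mouse chromosome 17 (GRCm38, GENCODE M21). H2-K1 (ENSMUSG00000061232.16) is at chr17:33996017-34000347 on the minus strand, at the centromeric end of the complex. The Q members follow H2-D1 (chr17:35262730-35267499, plus strand) in the order H2-Q1 (chr17:35320405-35325099), H2-Q4 (chr17:35379617-35385290), H2-Q6 (chr17:35424850-35430055) and H2-Q7 (chr17:35439155-35443773), all on the plus strand. H2-T23 (chr17:36029773-36032855) and H2-T22 (chr17:36037128-36042747) are neighbours on the minus strand, and H2-M3 (chr17:37270220-37274484, plus strand) lies farthest out. B2m is on chromosome 2 (chr2:122147686-122153083, plus strand).

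The promoters of H2-K1, H2-D1, H2-Q4, H2-Q6 and B2m are shown because these genes gave different outcomes in the kidneys described below: H2-K1, H2-Q4 and B2m were higher in both MRL/lpr groups, H2-Q6 was lower, and H2-D1 passed the test in neither. Each line is the 180 bases upstream of the RefSeq transcription start in the C57BL/6J reference (GRCm38.p6), read 5′ to 3′ along the gene, with matches to the 5 motifs searched in capitals. The windows are chr17:34000348-34000527 for H2-K1 (minus strand), chr17:35262914-35263093 for H2-D1, chr17:35379437-35379616 for H2-Q4, chr17:35424670-35424849 for H2-Q6 and chr2:122147507-122147686 for B2m (plus strand).
H2-K1: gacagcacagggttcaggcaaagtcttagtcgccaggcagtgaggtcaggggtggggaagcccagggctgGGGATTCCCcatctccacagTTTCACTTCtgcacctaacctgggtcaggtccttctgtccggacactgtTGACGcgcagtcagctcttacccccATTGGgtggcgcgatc
H2-D1: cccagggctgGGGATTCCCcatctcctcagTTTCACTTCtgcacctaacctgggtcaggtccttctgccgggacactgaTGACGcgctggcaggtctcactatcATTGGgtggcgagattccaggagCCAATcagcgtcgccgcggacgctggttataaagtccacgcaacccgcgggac
H2-Q4: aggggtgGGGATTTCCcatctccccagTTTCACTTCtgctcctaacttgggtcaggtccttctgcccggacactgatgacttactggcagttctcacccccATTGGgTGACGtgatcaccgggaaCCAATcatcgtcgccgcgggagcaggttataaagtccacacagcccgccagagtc
H2-Q6: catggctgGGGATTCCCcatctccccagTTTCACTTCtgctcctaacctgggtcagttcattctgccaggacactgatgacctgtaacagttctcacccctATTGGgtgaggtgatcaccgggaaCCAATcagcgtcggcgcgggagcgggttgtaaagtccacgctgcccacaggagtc
B2m: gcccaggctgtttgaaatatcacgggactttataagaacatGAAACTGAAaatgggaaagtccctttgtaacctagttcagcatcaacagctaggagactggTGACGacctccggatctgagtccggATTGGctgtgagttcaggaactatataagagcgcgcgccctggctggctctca

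RefSeq gave a promoter for 9 of the 10 members, H2-Q1 being the member without an entry. Motifs were searched on both strands of the 250 bases upstream of the start. The kappaB site of enhancer A, GGGATTNCC, was found in H2-K1, H2-D1, H2-Q4, H2-Q6 and H2-Q7, against 0.855% of 27025 promoters. The interferon response core TTTCACTTC was found in the same 5 genes and in H2-M3, against 0.429% of all promoters. In H2-K1 the kappaB match began at position -110 and the interferon response core at -90, and in H2-D1 at -170 and -150, where -1 is the base before the RefSeq start. The spacing of the pair was thus the same in both genes, and it was the same again in H2-Q4 (-173 and -153) and H2-Q6 (-172 and -152). In H2-Q7 the pair began at -132 and -113, which is 1 base closer.

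H2-T22, H2-T23 and B2m had neither of these motifs in this window and instead each held 1 match to GAAANNGAA, the core of an interferon-stimulated response element, which 7.16% of all promoters hold and which in B2m began at -139. TGACG, the cyclic AMP response element core of the SXY module, is held by 17.9% of all promoters. Its letters were found in 7 of the 9 genes, the exceptions being H2-Q6 and H2-T23. In H2-K1, H2-D1, H2-Q7 and B2m they lay upstream of every match to the Y box core ATTGG. In H2-Q4 (-73) and H2-M3 (-46) they lay between such matches, and in H2-T22 (-22) downstream of all of them. Matches were counted anywhere in the window, so whether a match or its absence concerns the SXY module was not tested. The Y box core ATTGG, present in 34.5% of all promoters, was found in all 9. The letters of no motif contain those of another, although TTTCACTTC and GAAANNGAA are parts of related elements. H2-K1 and H2-D1 were identical at 87.4% of 190 aligned promoter bases, and H2-Q6 and H2-Q7 at 97.6% of 210. These are letters of the C57BL/6J reference, and the MRL alleles were not analysed here.

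The libraries held between 33469858 and 38460873 counts. Markers of proximal tubule, loop of Henle, distal tubule, collecting duct, podocyte and endothelium were detected in every library. The 4 leukocyte markers summed to between 41.7 and 57.0 CPM (counts scaled to library depth by TMM factors) in Ctr, between 258 and 444 in Lpr and between 198 and 359 in DNase. Fas, as counted over the whole gene, did not pass the test between any groups (log2 fold change -0.01, 95% interval -0.54 to 0.52, Lpr vs Ctr). In Lpr replicate 3 the level of a gene relative to its mean over the kidneys fell with gene length, with a slope of -0.393 log2 CPM per doubling of length against -0.0433 to 0.0775 in the other libraries, so the counts of genes that passed in Lpr vs Ctr are also given without it.

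In Lpr kidneys, 7 of the 10 genes rose over Ctr, 2 fell and 1 did not pass the test. B2m, H2-K1, H2-Q1, H2-Q4, H2-T22, H2-T23 and H2-M3 were higher, between 2.76-fold (H2-T22) and 151.5-fold (H2-Q1), whereas H2-Q6 and H2-Q7, neighbours in the group of genes that encodes the Qa-2 antigen, were lower. H2-D1, the second classical heavy chain gene, was 1.52-fold higher on average, and its difference did not pass. A gene passed at a Benjamini-Hochberg adjusted p under 0.05 in edgeR's quasi-likelihood test over 16074 genes, of which 7.27% passed as higher and 2.92% as lower. With the further condition of an absolute log2 fold change over 2, 6 of the 10 genes were higher and 2 lower, against 4.65% and 1.13% of all genes. The values of the 2 groups did not overlap in 7 genes that were higher and 2 that were lower, a pattern seen in 14.4% and 11.2% of all genes. The median log2 fold change was 2.16 over the 10 genes and 0.03 over all genes tested. Without Lpr replicate 3 the members that passed were again 7 higher and 2 lower.

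**Figure D1:**
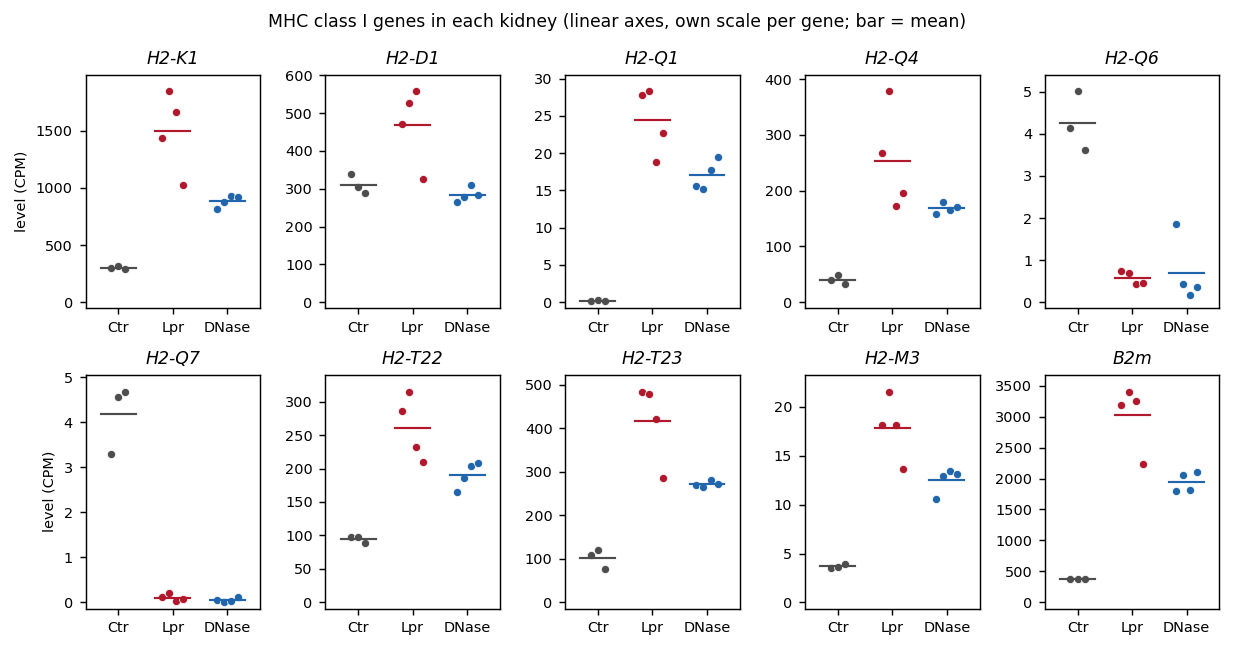
Level of each of the 10 genes in CPM (vertical axis, linear, with its own scale in each panel) in every kidney of Ctr (n = 3), Lpr (n = 4) and DNase (n = 4); points are kidneys and bars are group means. H2-K1, H2-Q1, H2-Q4, H2-T22, H2-T23, H2-M3 and B2m are higher in all 8 MRL/lpr kidneys than in any Ctr kidney, H2-Q6 and H2-Q7 are lower in all 8, and H2-D1 overlaps.

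Among the members, the light chain gene B2m had the smallest adjusted p after H2-Q1. Its level was 380.2, 374.3 and 384.6 CPM in the 3 Ctr kidneys and 3191, 3401, 3257 and 2237 CPM in the 4 Lpr kidneys. The groups lay far apart, and Lpr replicate 4, the lowest of its group, was still well above every Ctr kidney. The log2 fold change of B2m was 3.00 ± 0.22 (SE), or 7.98-fold with a 95% interval from 5.65 to 11.3 (edgeR quasi-likelihood test, Benjamini-Hochberg adjusted p = 0.00029).

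The classical genes H2-K1 and H2-D1, which present peptides to CD8 T cells in most tissues, fell on different sides of the threshold, and the ratio of their counts did not overlap between Ctr and Lpr (given below). H2-K1 was at 299.6, 316.0 and 294.5 CPM in Ctr and at 1437, 1846, 1666 and 1030 CPM in Lpr, with no overlap, a log2 fold change of 2.31 ± 0.24 (SE) and an adjusted p of 0.00075 (edgeR quasi-likelihood test, Benjamini-Hochberg). H2-D1 was at 337.6, 305.5 and 289.5 CPM in Ctr and at 470.0, 526.4, 557.4 and 325.5 CPM in Lpr. The groups overlapped, with Lpr replicate 4 between the Ctr kidneys. The log2 fold change of H2-D1 was 0.60 ± 0.21 (SE, 95% interval 0.11 to 1.09), and it did not pass over all genes (edgeR quasi-likelihood test, Benjamini-Hochberg adjusted p = 0.14). Without Lpr replicate 4 it was 0.74 and passed (edgeR quasi-likelihood test, Benjamini-Hochberg adjusted p = 0.040), and over the alternatives that left out each library the adjusted p ran from 0.040 to 0.375.

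The Q genes went in both directions. H2-Q1 was almost absent from the Ctr libraries, with 4, 7 and 5 counts, and held 988, 1085, 625 and 798 counts in the Lpr libraries. Its log2 fold change of 7.24 ± 0.34 (SE) carried the smallest adjusted p of all genes tested (edgeR quasi-likelihood test, Benjamini-Hochberg adjusted p = 0.000148). H2-Q4, which encodes the Qb-1 antigen, was at 40.2, 48.0 and 33.2 CPM in Ctr and at 267.7, 377.8, 172.5 and 196.2 CPM in Lpr. The groups did not overlap, although Lpr replicate 2 had over 2 times the level of Lpr replicate 3, and the log2 fold change was 2.65 ± 0.32 (SE; edgeR quasi-likelihood test, Benjamini-Hochberg adjusted p = 0.0014).

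H2-Q6 and H2-Q7 were low even in Ctr and close to absent in MRL/lpr kidneys. H2-Q6 held 154, 157 and 121 counts in the Ctr libraries and 26, 27, 14 and 16 in the Lpr libraries, and its log2 fold change was -2.86 ± 0.33 (SE; edgeR quasi-likelihood test, Benjamini-Hochberg adjusted p = 0.0012). H2-Q7 held 123, 143 and 156 counts in Ctr and 4, 8, 1 and 3 in Lpr, and its log2 fold change was -5.18 ± 0.50 (SE; edgeR quasi-likelihood test, Benjamini-Hochberg adjusted p = 0.00065). Neither gene overlapped between the groups, and the fitted value of H2-Q7 rests on very few counts on the Lpr side.

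Among the T and M genes all 3 members rose. H2-T22, whose product binds gamma delta T cell receptors, was at 98.4, 97.7 and 88.2 CPM in Ctr and at 286.2, 314.7, 232.3 and 209.8 CPM in Lpr (log2 fold change 1.46 ± 0.19, SE). H2-T23, the gene of Qa-1, the ligand of the CD94/NKG2A receptor, was at 109.2, 120.7 and 76.8 CPM in Ctr and at 484.2, 478.4, 421.5 and 286.6 CPM in Lpr (log2 fold change 2.04 ± 0.26, SE). H2-M3, which presents N-formylated peptides, was at 3.51, 3.61 and 3.93 CPM in Ctr and at 18.2, 21.5, 18.1 and 13.7 CPM in Lpr (log2 fold change 2.28 ± 0.22, SE). In each gene the lowest Lpr kidney, replicate 4, exceeded the highest Ctr kidney, and the edgeR quasi-likelihood test gave Benjamini-Hochberg adjusted p = 0.0022, 0.0018 and 0.00065 for H2-T22, H2-T23 and H2-M3. For these bulk libraries, more cells of a type and more RNA per cell cannot be told apart.

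In DNase kidneys the same comparison with Ctr again gave 7 genes higher, 2 lower and H2-D1 not past the test. The Ctr kidneys are shared with the comparison above. Of 16100 genes tested, 13.1% passed as higher and 8.61% as lower. The condition of an absolute log2 fold change over 2 left 3 genes higher and 2 lower, against 4.56% and 1.45% of all genes, since H2-K1, H2-T22, H2-T23 and H2-M3 were between 2.02-fold and 3.40-fold higher. Without overlap with Ctr, 7 genes were higher and 2 lower, against 18% and 13.9% of all genes. The median log2 fold change was 1.48 over the 10 genes and 0.002 over all genes tested.

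B2m was at 1804, 2063, 1815 and 2098 CPM in the 4 DNase kidneys, 5.13-fold above Ctr (95% interval 4.39 to 6.01; edgeR quasi-likelihood test, Benjamini-Hochberg adjusted p = 1.48e-06). H2-K1 was at 811.5, 881.1, 932.8 and 918.0 CPM, with a log2 fold change of 1.55 ± 0.09 (SE; edgeR quasi-likelihood test, Benjamini-Hochberg adjusted p = 5.87e-06). H2-D1 was at 264.1, 277.3, 309.2 and 282.3 CPM, which overlaps with the Ctr values, and its log2 fold change was -0.13 with a 95% interval from -0.33 to 0.07 (edgeR quasi-likelihood test, Benjamini-Hochberg adjusted p = 0.354). The DNase kidneys spread little around their mean in all 3 genes, and H2-D1 was the member nearest to the Ctr level.

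H2-Q1 held 564, 560, 709 and 760 counts in the DNase libraries (log2 fold change 6.73 ± 0.24, SE), and H2-Q4 was at 158.3, 180.4, 164.7 and 169.8 CPM (2.06 ± 0.12, SE). H2-T22 was at 164.6, 186.5, 203.3 and 208.1 CPM (1.01 ± 0.10, SE), H2-T23 at 270.4, 266.3, 281.9 and 272.9 CPM (1.42 ± 0.14, SE) and H2-M3 at 10.53, 12.9, 13.5 and 13.1 CPM (1.77 ± 0.14, SE). None of these genes overlapped with Ctr, and the largest of the 5 adjusted p-values was 0.00011 (edgeR quasi-likelihood test, Benjamini-Hochberg, H2-T23).

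H2-Q6 held 67, 16, 7 and 14 counts in the DNase libraries, so that replicate 1 stood above the others and still below every Ctr library. Its log2 fold change was -2.60 ± 0.62 (SE; edgeR quasi-likelihood test, Benjamini-Hochberg adjusted p = 0.016), and without DNase replicate 1 it was -3.70. H2-Q7 held 2, 0, 1 and 5 counts, and its log2 fold change was -6.22 ± 0.53 (SE; edgeR quasi-likelihood test, Benjamini-Hochberg adjusted p = 4.72e-05), or -7.11 without DNase replicate 4. In both MRL/lpr groups H2-Q7 was therefore at or near the lower limit of detection.

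**Figure D2:**
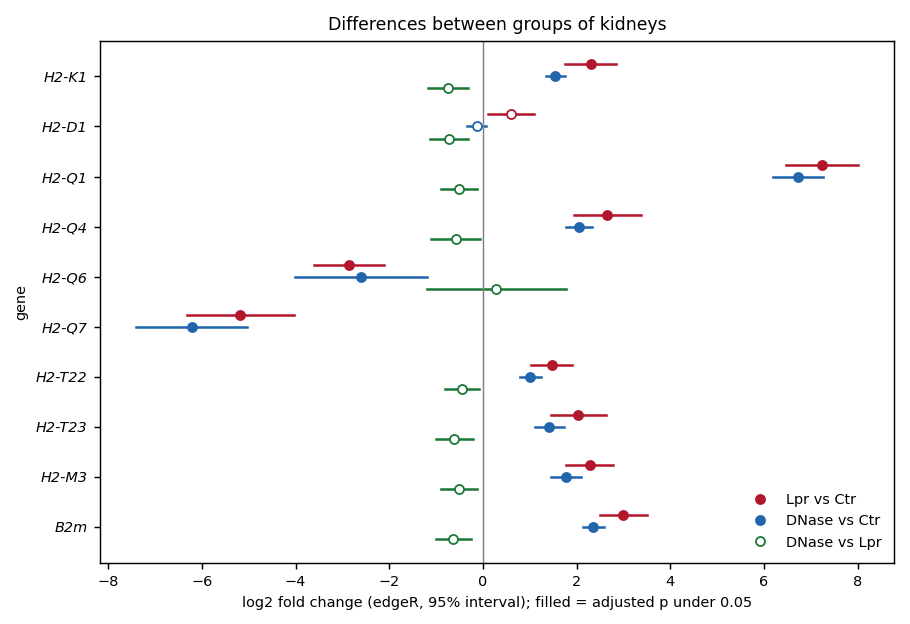
Log2 fold change of each gene (horizontal axis) with its 95% interval from edgeR for Lpr vs Ctr, DNase vs Ctr and DNase vs Lpr; filled points have an adjusted p under 0.05, and H2-Q7 has no value for DNase vs Lpr because its counts were below the filter. Both comparisons with Ctr show 7 genes to the right of 0 and 2 to the left with H2-D1 open, and all points for DNase vs Lpr are open, 8 of 9 lying to the left of 0.

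The comparison of DNase with Lpr sets mice given DNase I against mice that were not, within the same strain and haplotype. Whether the Lpr mice received a vehicle injection was not given in the sources used here, so DNase I and the daily injection cannot be told apart. No member passed the edgeR quasi-likelihood test, in which 0 of 15832 genes passed after Benjamini-Hochberg adjustment and 886 genes, 5.6% of those tested, had an unadjusted p under 0.05. DESeq2 called 19 genes, 0 of them members. Of the 9 members tested, 8 had lower mean levels in DNase, and these 8 all had an unadjusted p under 0.05, where 3.43% of all genes were lower at that level. For 6 members, H2-K1, H2-D1, H2-T22, H2-T23, H2-M3 and B2m, the highest DNase kidney lay below the lowest Lpr kidney, which was the case for 1.87% of all genes. The median log2 fold change was -0.58 over the 9 members and -0.02 over all genes. The members are genes of the same kidneys and not independent observations.

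H2-K1 in DNase kidneys was 0.60 times the Lpr level (log2 fold change -0.75, 95% interval -1.17 to -0.33; edgeR quasi-likelihood test, Benjamini-Hochberg adjusted p = 0.820). The values of H2-D1 (-0.72, -1.12 to -0.32), B2m (-0.63, -1.01 to -0.25) and H2-T23 (-0.61, -1.0 to -0.21) were similar in size on the log2 scale. H2-Q4 (-0.58, -1.10 to -0.07), H2-Q1 (-0.51, -0.89 to -0.13), H2-M3 (-0.51, -0.89 to -0.13) and H2-T22 (-0.44, -0.81 to -0.08) followed, all with adjusted p-values between 0.820 and 0.854 (edgeR quasi-likelihood test, Benjamini-Hochberg). The gap between the groups was narrow in the genes that did not overlap. The highest DNase kidney for H2-K1 was at 932.8 CPM and the lowest Lpr kidney at 1030 CPM, and for H2-T22 the same values were 208.1 and 209.8 CPM. The lowest Lpr kidney was replicate 4 in all 6 of these genes, and in H2-Q1 and H2-Q4 it was replicate 3.

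H2-Q6 was the member with the opposite sign, at 0.29 with an interval from -1.19 to 1.76, and it was -0.83 without DNase replicate 1 and -0.15 with the replicate number as a block, so its direction was not determined. H2-Q7, with at most 8 counts in any MRL/lpr library, was below the count filter. Markers of other cells are given for the same comparison. Over the 4 leukocyte markers the median log2 fold change from Lpr to DNase was -0.19, over the 5 T cell markers -0.20, over the 6 macrophage markers -0.37 and over the 4 B cell markers 0.99, with 0 of these 19 genes past the test, as for all genes, and the summed levels overlapping in each list. All 4 B cell markers had higher means in DNase, 2 of them at an unadjusted p under 0.05 and 2 without overlap, whereas 0 of the other 15 reached that level. The collecting duct marker was at -0.60 on the log2 scale, with overlapping levels. The medians of the proximal tubule (0.09), loop of Henle (0.37), distal tubule (0.29), podocyte (0.37) and endothelium (0.12) lists were positive. The median was -0.38 over the neutrophil markers tested and 0.33 over the natural killer cell markers. The part of these cells in the lower class I values was not tested.

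Markers of immune cells rose over Ctr beside the members. The leukocyte list passed in 4 of 4 genes in both MRL/lpr groups, the T cell list in 5 of 5 and the macrophage list in 6 of 6, with all of these markers detected in every library. Of all genes, 7.27% passed as higher in Lpr and 13.1% in DNase. The T cell markers summed to between 1.69 and 3.54 CPM in Ctr, between 22.6 and 70.3 in Lpr and between 25.6 and 48.1 in DNase, and the macrophage markers to between 135 and 172, between 590 and 1199 and between 482 and 919 CPM. B cell markers passed in 1 of 4 genes in Lpr and 4 of 4 in DNase. The natural killer cell markers summed to at most 1.18 CPM in any kidney and the neutrophil markers to at most 20.2 CPM, with Ncr1 or Ly6g at 0 in some libraries. The part of these cells in the class I levels was not tested.

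The make-up of the heavy chain counts set Ctr apart from both MRL/lpr groups. Summed over the 21 class I heavy chain genes of the H2 complex in the table, a quantity that does not depend on how reads were divided among the genes in it, the mean level ± SD was 879.6 ± 61.3 CPM in the 3 Ctr kidneys, 2985 ± 631 CPM in the 4 Lpr kidneys and 1873 ± 103 CPM in the 4 DNase kidneys. Lpr was thus 3.39 times Ctr, DNase was 2.13 times Ctr, and the DNase sum was 0.628 times the Lpr sum. The sum ranged from 2131 to 3652 CPM in Lpr and from 1730 to 1961 in DNase, without overlap. It holds only reads assigned to a gene in the table, where 12 of the 36 other class I symbols looked for were found. H2-T10 was among those absent. Adding the pseudogene H2-T-ps, an alternative chosen after its values were seen, gave 882.1, 3004 and 1886 CPM.

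H2-K1 made up 34.6% ± 1.8 (SD, n = 3) of these counts in Ctr, 49.9% ± 2.8 in Lpr and 47.3% ± 0.31 in DNase (SD, n = 4 each). H2-D1 made up 35.4% ± 1.8, 15.8% ± 1.5 and 15.1% ± 0.51 in the same order. The ratio of H2-K1 to H2-D1 counts was 0.979 ± 0.080 in Ctr, 3.18 ± 0.23 in Lpr and 3.13 ± 0.11 in DNase, so that the Ctr kidneys, between 0.887 and 1.03, were well apart from the MRL/lpr kidneys, between 2.99 and 3.51, and the treated and untreated MRL/lpr kidneys overlapped. H2-Q4 went from 4.58% in Ctr to 8.47% in Lpr and 9.00% in DNase, H2-T23 from 11.5% to 14% and 14.6%, and H2-T22 was at 10.8%, 8.83% and 10.16%. H2-Q1 rose from 0.0182% to 0.839% and 0.908%, and H2-M3 lay between 0.421% and 0.666% in the group means. H2-Q6 fell from 0.483% in Ctr to 0.0195% in Lpr and 0.0394% in DNase, and H2-Q7 from 0.479% to 0.00359% and 0.00278%.

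**Figure D3:**
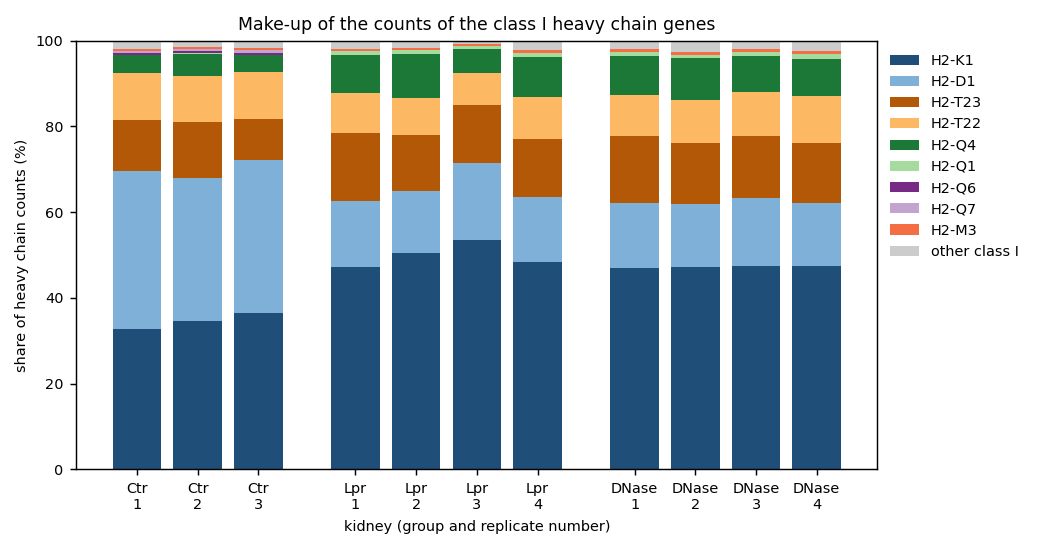
Share of the counts of the 21 class I heavy chain genes (vertical axis, percent) taken by each of the 9 heavy chain members and by the other 12 genes together (grey), in each kidney of Ctr, Lpr and DNase. H2-K1 and H2-D1 take about equal shares in Ctr (34.6% and 35.4%), whereas H2-K1 takes 49.9% in Lpr and 47.3% in DNase and H2-D1 15.8% and 15.1%.

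How far these shares depend on read assignment was examined on the C57BL/6J reference transcripts. Reads were paired and 100 bases long, and a read from a stretch of that length that also occurs in a transcript of another gene cannot be assigned by its own sequence, although its mate may assign the pair. Such stretches made up 0% of the longest coding transcript of H2-K1, H2-M3 and B2m, 2.66% of H2-Q4, 4.64% of H2-D1 (4.24% shared with H2-Q1) and 7.28% of H2-T23. They made up 10.8% of H2-Q6 and 16.4% of H2-Q7, which shared most of them with each other, 13.1% of H2-Q1 and 14.2% of H2-T22, which shared most of its own with H2-T10. H2-K1 and H2-D1 were identical at 91.9% of aligned coding bases, H2-Q6 and H2-Q7 at 95.5%, and H2-M3 was the least like any other member, at 75.6% with H2-D1.

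The longest coding transcripts of H2-K1, H2-M3 and B2m thus had no such stretch in common with another gene of the reference. All 3 genes rose in Lpr and DNase, but the check compared reference transcripts only and does not show where k haplotype reads were counted. For H2-K1 and H2-M3 the gene length behind the FPKM values exceeded that of the transcript compared. Part of the counted sequence of these genes was therefore not examined for shared stretches. Reads of a k haplotype allele may match a different b haplotype gene better than its own counterpart or match none, and the treatment of reads with several matches was not given in the sources used here, the methods of the study naming HTSeq for the alignment. The coding sequence of H2-Q1 is most like that of H2-D1 (88.2% of aligned bases). The H2-K1 and H2-D1 shares, the gain of H2-Q1 and the loss of H2-Q6 and H2-Q7 were each measured between strains. The part of read assignment in them was not tested. The comparison of DNase with Lpr is within a strain.

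Of the other 12 class I heavy chain genes of the H2 complex in the table, 8 had enough counts to test in the comparisons with Ctr. In Lpr, H2-M2 (log2 fold change 6.20) and Gm8909 (4.69) rose and H2-Q2 (-3.31) and H2-Q9 fell, where 7.27% of all genes passed as higher and 2.92% as lower. H2-Q9 had 30, 11 and 22 counts in the Ctr libraries and 0 in all 8 MRL/lpr libraries, which makes it at least 7.16-fold lower in Lpr and at least 7.64-fold lower in DNase, against a floor of 3 counts per library. H2-Q2 held 96, 50 and 102 counts in Ctr and at most 11 in an MRL/lpr library. H2-M2 held 5, 3 and 10 counts in Ctr and between 138 and 818 in MRL/lpr libraries. In DNase, H2-M2 (6.45), Gm8909 (4.36), Gm7030 (2.37) and H2-T24 (2.11) rose and H2-Q2 (-5.13), H2-Q9 and Gm11127 (-1.04) fell. There, 13.1% of all genes passed as higher and 8.61% as lower. H2-T24 was at 2.89 CPM in Lpr replicate 3 and between 17.1 and 25.0 CPM in the other Lpr kidneys, and it did not pass in Lpr. Without Lpr replicate 3, 5 of these genes passed in Lpr rather than 4. The gains and losses near absence, as in H2-Q1, H2-Q6 and H2-Q7, were thus also seen in non-member genes of the complex.

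B2m rose more over Ctr than the heavy chains did in sum. Per length, in FPKM (fragments per kilobase of gene length, scaled to library depth), B2m was at 427.7 ± 17.1 (SD, n = 3) in Ctr, and at 3490 ± 590 in Lpr and 2342 ± 167 in DNase (SD, n = 4 each). The 21 heavy chain genes summed to between 415.8 and 475.8 FPKM in Ctr, between 1128 and 1937 in Lpr and between 938.3 and 1054 in DNase. The heavy chain sum per B2m was 1.05 ± 0.095 (SD, n = 3) in Ctr, 0.436 ± 0.025 in Lpr and 0.429 ± 0.035 in DNase (SD, n = 4 each). The Ctr ratios, from 0.942 to 1.12, did not overlap with the MRL/lpr ratios, from 0.402 to 0.478, and the ratios of Lpr and DNase overlapped. This ratio, too, counts only heavy chain reads that were assigned to a listed gene.

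**Figure D4:**
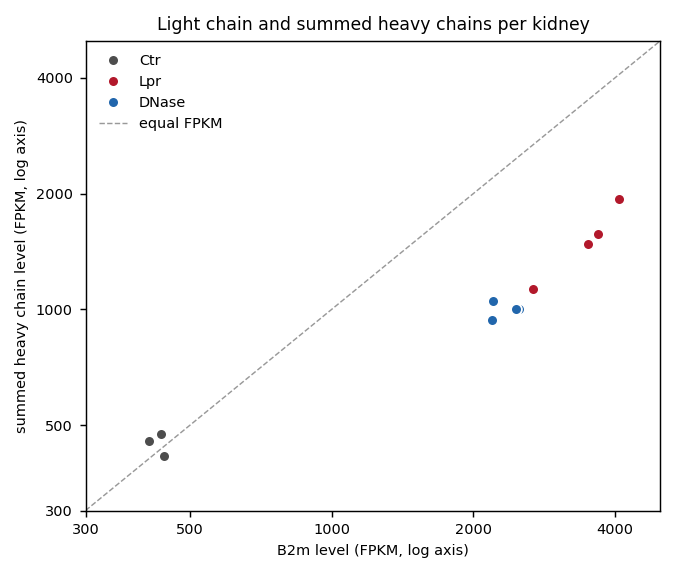
Summed level of the 21 class I heavy chain genes (vertical axis, FPKM, log scale) against the level of B2m (horizontal axis, FPKM, log scale) in each kidney; the dashed line marks equal values. The Ctr kidneys lie at the line, with a ratio of 1.05, and the 8 MRL/lpr kidneys lie below it, at 0.436 in Lpr and 0.429 in DNase.

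Ordered by FPKM, B2m was first in every group. In Ctr, H2-D1 (173 ± 14.9, SD) and H2-K1 (134 ± 1.4) came next, followed by H2-T23 (74.8 ± 15.2), H2-T22 (29.7 ± 1.5), H2-Q4 (21.7 ± 3.4), H2-Q7 (2.63 ± 0.47), H2-Q6 (1.88 ± 0.26), H2-M3 (1.47 ± 0.11) and H2-Q1 (0.049 ± 0.017). The ranges of H2-Q7 and H2-Q6 overlapped in Ctr, and those of the other neighbours in this order did not. In Lpr, H2-K1 (679 ± 159) was second, before H2-T23 (315 ± 70), H2-D1 (268 ± 53), H2-Q4 (142 ± 56), H2-T22 (84.3 ± 17.5), H2-Q1 (7.71 ± 1.67) and H2-M3 (7.35 ± 1.41), and H2-Q6 (0.265) and H2-Q7 (0.072) were last. In that group H2-T23 overlapped with H2-D1, H2-Q4 with H2-T22 and with H2-D1, and H2-Q1 with H2-M3. In DNase the order was the same as in Lpr. H2-K1 was at 420 ± 24, H2-T23 at 214 ± 6.2, H2-D1 at 169 ± 11.8 and H2-Q4 at 97.0 ± 5.3 FPKM, with no overlap among these 4.

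The genes that supply and load peptides onto class I rose with the members. In Lpr, 12 of 13 passed as higher over Ctr and 0 as lower, against 7.27% and 2.92% of all genes. The median log2 fold change over the 13 was 1.80. The 4 with the smallest p were Psmb9 (3.76 ± 0.25, SE) and Psmb8 (4.05 ± 0.26), subunits of the immunoproteasome, Tap2 (2.90 ± 0.26), of the peptide transporter into the endoplasmic reticulum, and Psmb10 (2.74 ± 0.29), the remaining inducible proteasome subunit. Canx, the chaperone calnexin, was the gene that did not pass (0.43 ± 0.15), and all 13 passed without Lpr replicate 3. In DNase, 11 of 13 passed as higher than Ctr (median 1.18), against 13.1% of all genes. Against Lpr all 13 had lower means (median -0.56), and 0 passed the edgeR test. Of the 13, 9 had an unadjusted p under 0.05, where 3.43% of all genes were lower at that level. Without overlap were 5, against 1.87% of all genes.

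Of 22 regulators of class I transcription, 6 passed as higher in Lpr and 0 as lower, against 7.27% and 2.92% of all genes. The median log2 fold change over the 22 was 0.43, and 11 passed without Lpr replicate 3. Among the 6 were Irf1 (2.70 ± 0.36, SE), an interferon-induced activator, Ifng (4.09 ± 0.61), which encodes interferon gamma, Nlrc5 (3.40 ± 0.57), the class I transactivator, Ciita (3.65 ± 0.63), the class II transactivator, and Irf9 (1.24 ± 0.22). In DNase, 13 passed as higher than Ctr, against 13.1% of all genes. Among them were Irf1 (2.10), Ifng (4.05), Nlrc5 (3.09), Ciita (3.29), Irf9 (0.94), Stat2 (0.94), Irf2 (0.52), Nfkb1 (0.45), Ifngr2 (0.44), Nfya (0.36), Ifnar2 (0.35) and Creb1 (0.31). The count of 13 became 6 when the 3 groups were fitted together and 7 with the replicate number as a block. Nlrc5 was at 4.01 ± 1.46 CPM (SD, n = 3) in Ctr, 42.1 ± 22.3 in Lpr and 34.0 ± 4.06 in DNase (SD, n = 4 each). The Lpr kidneys ran from 12.2 to 64.2 CPM and the DNase kidneys from 28.5 to 37.8 CPM. The lowest Lpr kidney was replicate 3, the library in which levels fell with gene length.

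Receptors of class I molecules and genes of related receptor families, taken as 1 list, were higher as well. The list was not limited to receptors shown to bind class I. In Lpr, 10 of the 12 tested passed as higher and 0 as lower, against 7.27% and 2.92% of all genes. The median log2 fold change over the 12 was 3.59. When Ctr replicate 2 or Ctr replicate 3 was left out 6 passed, and 9 passed without Lpr replicate 3. The 4 with the smallest p were Cd8a (4.31 ± 0.23, SE), the class I co-receptor of T cells, Lilrb4a (3.39 ± 0.31), Klra2 (3.78 ± 0.61), of the Ly49 family, and Pirb (2.33 ± 0.37), an inhibitory receptor of myeloid and B cells. In DNase, 9 of 11 passed as higher than Ctr (median 2.96), against 13.1% of all genes. Cd8a was at 32.2 ± 4.06 CPM in Lpr and 30.2 ± 5.91 CPM in DNase (SD, n = 4 each), against 1.63 ± 0.29 (SD, n = 3) in Ctr.

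Class I-like genes outside the H2 complex were tested as a further list. In Lpr 0 of 8 passed edgeR's test in either direction, where 7.27% of all genes were higher and 2.92% lower, with 4 at an unadjusted p under 0.05 (21.4% of all genes), 2 passing in DESeq2 and 1 without Lpr replicate 3. In DNase, H60b (2.22 ± 0.62, SE), which encodes a ligand of NKG2D, rose and Mill2 (-1.27 ± 0.26) fell among 9 tested, where 13.1% of all genes were higher and 8.61% lower, with 0 passing when the replicate number was a block and 1 when Ctr replicate 1, Ctr replicate 3, DNase replicate 2 or DNase replicate 3 was left out. Of 45 genes of the H2 region with other functions, 4 passed as higher and 1 as lower in Lpr (median 0.13), a share near that of all genes, and 4 as higher and 2 as lower in DNase (median 0.03). Those with the smallest p in Lpr were Rps18 (-2.04 ± 0.43, SE), a ribosomal protein gene whose processed copies make its counts uncertain, Tubb5 (0.99 ± 0.21), Ppp1r18 (1.30 ± 0.29) and Msh5 (2.01 ± 0.44). The Lpr count of 5 was 0 without Ctr replicate 1 or Ctr replicate 3, 2 without Ctr replicate 2 and 1 without Lpr replicate 2, and it was 7 without Lpr replicate 3.

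**Figure D5:**
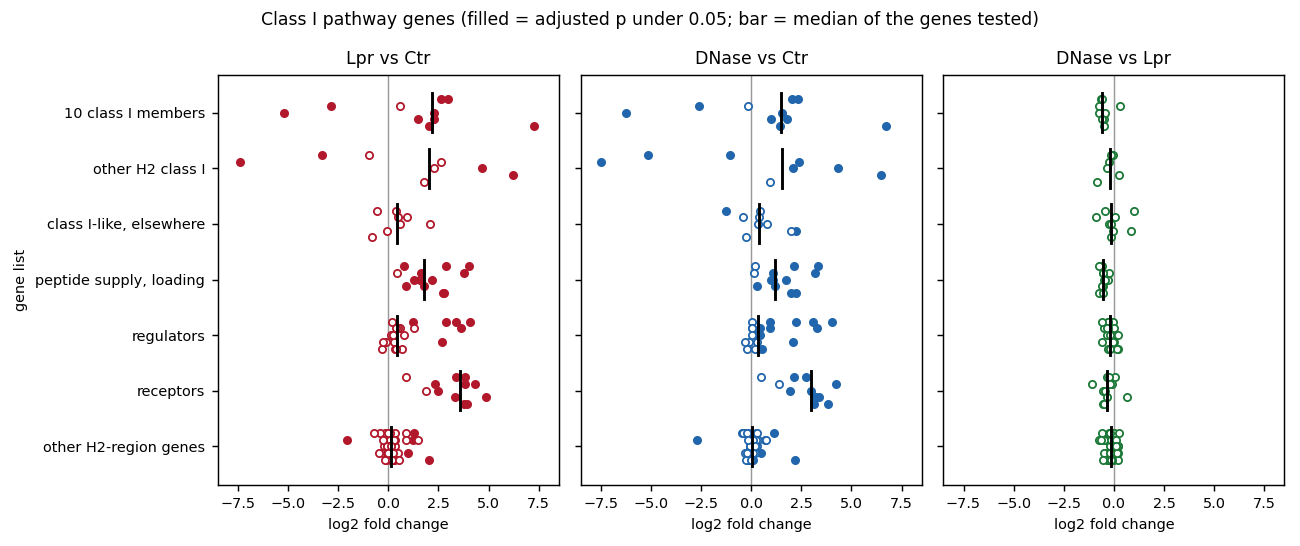
Log2 fold change (horizontal axis) of every tested gene of the 10 members and of 6 lists of related genes for Lpr vs Ctr, DNase vs Ctr and DNase vs Lpr; points are genes, filled at an adjusted p under 0.05, and bars are list medians. In Lpr vs Ctr the medians are 2.16 for the members, 1.80 for peptide supply and loading, 3.59 for the receptors and 0.13 for other genes of the H2 region, and no point is filled in DNase vs Lpr.

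Over the 11 kidneys and among genes other than the 10 members, the profiles most like that of B2m were those of H2-Aa, Tap2, Ly86, Bst2 and Zbp1. The members were left out of this ranking, so it does not say whether another class I gene lay nearer. The root mean square difference of centred log2 CPM from B2m was 0.183 for H2-Aa, the alpha chain of a class II molecule, 0.199 for Tap2, 0.273 for Ly86, 0.277 for Bst2 and 0.280 for Zbp1, against a median of 1.26 over 13963 genes. For H2-K1 the nearest non-member genes were H2-Ab1 (0.154), a class II beta chain, Creb5 (0.161), Cxcl16 (0.203), Ly86 (0.204) and Gsdmd (0.210), against a median of 0.970. H2-Aa was at 125 ± 7.25 CPM (SD, n = 3) in Ctr, 903 ± 269 in Lpr and 605 ± 90.2 in DNase (SD, n = 4 each), and H2-Ab1 at 134 ± 15.8, 550 ± 134 and 362 ± 44.0 CPM. These distances are a description over kidneys of 3 groups that differ in level, and they rest largely on the step from Ctr to MRL/lpr.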

How the data were processed

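RNA-seq of 11 mouse kidneys was analysed from the gene table of raw read counts deposited by the authors, who name fastp, HTSeq, DESeq2, R 3.2.0 and the build mm10 in their processing notes, and from FPKM values, which the authors made from the same counts per gene length and library total. All columns were used (0 unused). The methods of the study name HTSeq, a read counter, for the alignment of paired reads, and the annotation, strand setting and handling of multiply matched reads were not given in the sources used here. Groups were compared in pairs with edgeR 4.0.16 (R 4.3.3) after filterByExpr and TMM scaling, by the two-sided quasi-likelihood test with Benjamini-Hochberg adjustment over all genes tested. DESeq2 1.42.0 and limma 3.58.1 on log2(FPKM + 1) and log2(FPKM + 0.1) were alternatives, and the fits were tested on simulated data. CPM values used TMM factors over all 11 libraries. FPKM served to compare levels between genes. A fold against a group with at most 3 counts in every library is a lower bound computed at 3 counts per library.

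The members, gene lists and tests were chosen with earlier results of these data known. Named were all 10 members, up to 4 genes of each list by smallest p in Lpr vs Ctr among those that passed, and every regulator and other H2 class I gene that passed. Also named were the 5 non-member genes nearest in profile to B2m and to H2-K1. H2-T-ps, Canx and Fas were named outside this rule, and 1 regulator that it names is not reported here. Libraries of a group differed by more than counting error (chi-square per degree of freedom from 17.5 to 393 between pairs), and 1 library came from each mouse. Sequence comparisons used Biopython 1.88, GENCODE M21 transcripts and RefSeq promoters (GRCm38.p6). Plots were made in matplotlib 3.10.9 under python 3.11.15. Counts per library limit the precision of H2-Q6, H2-Q7 and H2-Q1 in the groups where they are rare.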

Additional observations from a re-analysis of the deposited data

Results flagged for a closer look

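H2-Q6 in DNase replicate 1 was at 1.85 CPM, apart from the other DNase kidneys between 0.176 and 0.435 CPM. The gap to the nearest kidney was 0.845 of the range of the group, over Dixon's 95% critical value for 4 samples. Of 20 groups of 4 kidneys examined in this way for the members, 1 was marked, and chance marks about 1 in 20. H2-Q7, which shares 8.36% of the H2-Q6 transcript in stretches of 100 bases, held 2 counts in the same library.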

How the results depend on the processing

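Over all alternatives run, 9 of the 10 members passed in both comparisons with Ctr, with these exceptions. The condition of an absolute log2 fold change over 2 left 8 members in Lpr vs Ctr and 5 in DNase vs Ctr, and H2-D1 passed as the last member in Lpr vs Ctr at 0.60 when the 3 groups were fitted together (edgeR quasi-likelihood test, Benjamini-Hochberg adjusted p = 0.038) and at 0.74 without Lpr replicate 4. In DNase vs Lpr, 0 members passed under any alternative run. H2-Q6 in DNase vs Lpr was 0.29 and turned to -0.15 with the replicate block, and ran from -0.83 without DNase replicate 1 to 0.61 without DNase replicate 3. Calls over all genes ran from 852 without Ctr replicate 1 to 2824 without Lpr replicate 3 in Lpr vs Ctr (1639 as reported) and from 1869 with the replicate block to 4239 in DESeq2 in DNase vs Ctr (3493 as reported). Among the related lists, limma on FPKM called 2 and 4 of the other H2 class I genes in Lpr and DNase against Ctr (4 and 7 as reported), and 10 regulators passed in Lpr vs Ctr with the groups fitted together. With the groups fitted together, 2 and 1 class I-like genes passed in Lpr and DNase against Ctr (0 and 2 as reported), and limma on log2(FPKM + 1) called 6 receptors in Lpr vs Ctr (10 as reported) and 1 class I-like gene in DNase vs Ctr. With library sizes alone in DNase vs Ctr, 4 class I-like genes (2 as reported; 5 in DESeq2) and 10 other genes of the H2 region (6 as reported; 3 with the groups fitted together) passed. The cause of these changes was not tested.

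Replicate numbers are shared between groups in the labels, and the deviations of libraries with the same number correlated between -0.277 and 0.159. These values gave no clear sign that the numbers pair the mice, but with so few libraries per group they cannot exclude a weak pairing. With the number as a block 9, 9 and 0 members passed in Lpr vs Ctr, DNase vs Ctr and DNase vs Lpr, and 1268, 1869 and 0 genes in all. The summed heavy chain level moved by less than 1 SD under every alternative run. Genes with few counts (H2-Q6 and H2-Q7 in MRL/lpr kidneys, H2-Q1 in Ctr) have the least certain fold changes. The MRL sequence of H2 was not analysed here, so read assignment between haplotypes limits each comparison with Ctr.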
